A study of Ovis aries with 60 samples.

Results

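The cytosines described here are the CG cytosines of sheep sperm that lay at an intermediate methylation level in every ram of the founder generation. Whole-genome bisulfite sequencing (WGBS) of semen DNA was used, in which an unmethylated cytosine is read as thymine and a methylated one stays a cytosine. The level of a cytosine is therefore the percentage of its reads that still show a cytosine. A cytosine was taken when this level was between 25% and 75% in all 10 F0 rams, on chromosomes 1 to 26, with a median coverage under 112.5 reads, which is 5 times the median of 22.5 over the listed CG cytosines. This gave 15667 cytosines of 313527 listed, or 5.22% of the 300166 autosomal ones under the coverage limit. They are called intermediate cytosines below. The F0 levels chose them, so that all their F0 values are a description and nothing is read from them.

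The F0 rams came from 5 twin pairs, and 5 of them had received a control diet with added encapsulated methionine (0.22% addition, 1.5 g) between weaning and puberty while 5 had received the control diet alone. The F1 samples were 5 pools of sperm from progeny of methionine-fed sires and 5 from progeny of control sires, and the F2 samples were 10 single grandsons from each side, 2 for each founder number. All F1 and F2 animals ate the control diet, and all ewes were untreated Polypay. The rams of each F2 family descend from 1 F1 ram, a pool averages several animals, and the labels do not name the twins. Methionine feeds the pathway that supplies methyl groups for DNA methylation.

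In mammalian sperm most CG cytosines outside CG-rich promoters are methylated, and CG-rich promoters are mostly free of methylation. A sperm cell is haploid and carries a single copy of each autosome, so that any read reports either a methylated or an unmethylated cytosine and an intermediate level is a mixture of reads of both kinds. Imprinted control regions, the best known sites where the parental copies differ in somatic cells, are in one state in sperm. Transposable elements such as L1, a family of long interspersed elements with very many copies in ruminant genomes, are a further class that the male germ line methylates.

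A cytosine is listed for a generation where all of its samples reach 10 reads. Reads on listed CG cytosines numbered 6990542 to 11196931 per F0 ram, 5813017 to 10562538 per F1 pool and 3735916 to 5585871 per F2 ram, and no 2 samples shared counts at more than 1.79% of the cytosines compared. The sperm label was checked on RNA of the same 20 F2 rams, in which all 17 genes of a male germ line list, such as DAZL and DDX4, were above 0 in every ram. Their summed level ranged from 54.96 to 11102 CPM (counts scaled to equal library totals), with a median of 322. All 4 genes of a leukocyte list and 2 of 4 genes of a squamous epithelium list were in the file and above 0 in every ram too, at 36.9 to 3049 and 22.9 to 7593 CPM. The medians of these leukocyte and squamous sums were 237 and 2395 CPM. The study describes lysis of somatic cells for the RNA samples only, and what these cells contribute to the DNA was not tested.

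The intermediate cytosines centred on equal shares of methylated and unmethylated reads. The rule favours this, since its bounds lie evenly around equal shares and hold in every ram. Their mean level over the F0 rams had a median of 50.1%, and 12890 of them (82.3%) had a mean between 40% and 60%. For a typical member the lowest ram stood at 33.3% and the highest at 66.7%. The lowest coverage among the 10 rams had a median of 17 reads, and whether the extremes came from thinly covered rams was not tested. Only 141 cytosines stayed between 40% and 60% in each of the 10 rams. For comparison, 67808 other cytosines had a mean between the bounds but at least 1 ram outside them, 196334 had a mean over 75%, and 20357 had a mean under 25%.

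Coverage was somewhat higher than at the other cytosines. The median coverage was 27 reads, against 22 over all 300166 autosomal cytosines under the limit, and 15.8% of the intermediate cytosines had at least 2 times the median of the file, against 6.13% of all. The part of depth in the choice of members was not tested.

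The bounds themselves cut through a continuum. The members just inside the lower bound, chr1:21948590 (+) and chr1:24927418 (+), had their lowest ram at 25%, and the cytosines just outside, chr2:139762704 (+) and chr6:102945550 (-), had it at 24.9% and 24.7%. At the upper bound, chr1:3019160 (-) and chr1:10434386 (+) had their highest ram at 75%, whereas chr3:94579943 (+) and chr1:183674512 (-) reached 75.3%. A lowest ram at exactly 25% was seen at 1048 members and a highest ram at exactly 75% at 1141.

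Both strands held intermediate cytosines alike, with 7812 on the plus and 7855 on the minus strand. All 26 autosomes held some, but at unequal rates. Chromosome 10 had the highest share with 1107 of 12414 cytosines (8.92%), followed by chromosome 15 with 834 of 11449 (7.28%). Chromosome 19 had the lowest share with 148 of 5586 (2.65%). Cytosines with a mean between the bounds, members included, were also most frequent on chromosomes 10 (37.5%) and 15 (35.2%). They made up 20.9% on chromosome 19 and were least frequent on chromosome 11 (18.5%). Members were 23.8% of them on chromosome 10, 20.7% on chromosome 15 and 12.7% on chromosome 19. The median level of the members, which the rule bounds, went from 48.4% on chromosome 24 to 51.02% on chromosome 13. Of 2662 windows of 1000000 bp with a listed cytosine, 1854 held a member and 513 held at least 10. The window with most members lay on chromosome 10 between 39000001 and 40000000, with 122 members among 517 listed cytosines (23.6%). It also held 233 other cytosines of intermediate mean.

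Members lay together more than singly in a minority of places. With members chained at 500 bp or less, they formed 11963 groups, of which 9423 were a single cytosine, 2540 held at least 2, 77 at least 5 and 12 at least 10. Groups of at least 2 took in 6244 members (39.9%). The largest group had 29 members among 69 listed cytosines at chr1:128504220-128505578, and its members averaged 50.98% in F0. On the same chromosome, 12 members lay at chr1:128509323-128510010 and 7 at chr1:128499227-128499920.

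The start of chromosome 15 held the next concentration. Groups of 24, 19 and 14 members lay at chr15:27744-29062, chr15:29864-30498 and chr15:31019-32021, among 113, 67 and 55 listed cytosines, with mean levels of 46.2%, 47.4% and 47.6%. At chr1:3017047-3017552 there were 19 members among 47 listed cytosines, with a median coverage of 80 reads, far above the 27 of all members. At chr3:192519488-192520273 all 18 members were on the minus strand, and the groups at chr1:53681329-53681856 (12 members), chr17:3514888-3515181 (11) and chr6:93141808-93142312 (10) were on the minus strand alone as well. At chr9:72785392-72786056 all 11 were on the plus strand. The opposite strand of the same CG was listed for only 141 of all 15667 members, so these groups describe which strand was listed. The strand of the other listed cytosines in these spans was not examined. Coordinates are those of Oar_rambouillet_v1.0, the build the study aligned to, and genes and repeats at these groups were not analysed here.

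The neighbourhood of an intermediate cytosine was itself mostly intermediate. Within 100 bp of a member, 29.2% of the listed CG cytosines were members and 77.7% had an F0 mean between 25% and 75%. Around cytosines with a mean over 75%, the same shares were 1.11% and 12.7%, and around the other cytosines of intermediate mean they were 14.2% and 58.1%. At 500 bp the values for members were 25.3% and 72.3%. At least 1 listed neighbour within 100 bp was present at 52.3% of members and 48.5% of the highly methylated cytosines, with 1.03 and 0.778 listed neighbours per cytosine. The part of this density in the shares was not tested.

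The nearest listed cytosine that was no member was closest to the member's own level at short range. At 1 to 10 bp (n = 973) its level had a median of 47.7%, and its 25th and 75th percentiles were 35.2% and 67.5%. The median difference from the member was 14.05 points at 1 to 10 bp, 17.04 at 11 to 50 bp and 22.0 beyond 100 and up to 500 bp. Across cytosines, which share libraries and reads, Pearson's r between member and neighbour was 0.30 at 1 to 10 bp and 0.13 beyond 100 and up to 500 bp. The share of neighbours above 75% went from 13.4% in the nearest band to 24.1% beyond 500 and up to 5000 bp.

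**Figure D1:**
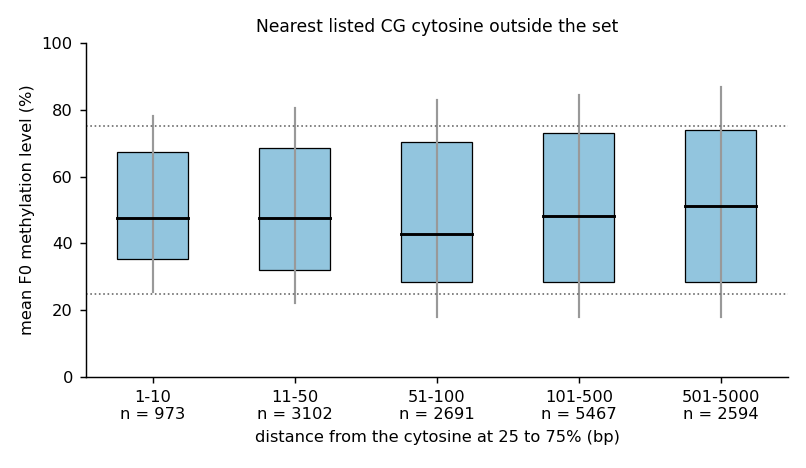
Mean F0 methylation level (%) of the nearest listed CG cytosine outside the set, by its distance in bp from the intermediate cytosine. Boxes span the 25th to 75th percentile, the black line is the median, grey lines reach from the 10th to the 90th percentile, and dotted lines mark 25% and 75%. The medians stay between 42.7% and 51.1% while the 10th percentile goes from 25.3% in the nearest band to 18.01% in the farthest.

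A CG site reads CG on both strands, and the enzyme that maintains methylation copies the state of 1 strand onto the other. The cytosine on the opposite strand was listed for 141 members only. Of these partners 76 were members too and 133 had a mean between the bounds. The median difference between the strands was 2.71 points, and 8 pairs differed by over 20 points. The same median was 3.21 points at the other cytosines of intermediate mean and 2.48 at those with a mean over 75%, and a pair of members on both strands is counted from each side.

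Outside the CG context the surroundings were nearly free of methylation. CHG and CHH cytosines, where H is any base but G, within 100 bp of a member averaged 0.357% ± 0.0108 (SD over 10 rams) and 0.342% ± 0.00779 in F0. Near the other CG cytosines they averaged 0.407% ± 0.0120 and 0.388% ± 0.0116. Both contexts were at most 0.376% in any ram near members. A mean of 25% or more was reached by 50 of 69289 CHG and 170 of 243636 CHH cytosines near members.

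The positions of cytosines around a member were used as a fingerprint of the surrounding sequence. For each listed CG cytosine with at least 6 listed cytosines of any context on its strand within 30 bp, the spacing of these cytosines was recorded. The same spacing at 5 or more CG cytosines was found for 3678 of 13465 members (27.3%), against 14.9% of all autosomal cytosines with such a window, 18.9% of the other cytosines of intermediate mean and 12.3% of those with a mean over 75%. Spacings present at 50 or more places covered 15.5% of members, 9.46% of the other cytosines of intermediate mean and 7.69% of all. The comparison is a description, since genome and repeat annotation of the build were not used here. Only listed cytosines enter a spacing, and the part of coverage in these shares was not tested.

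A few spacings gave many members. The leading one had cytosines at -29, -27, -25, -18, -15, 0 and 6 bp, occurred at 489 places, and 213 of them (43.6%), on 25 chromosomes, were members. Its copies ranged widely in level, with a mean of 48.7% ± 19.2 (SD over copies), and 56 of them were above 75% and 44 below 25% in mean. The second spacing was different in this respect, as its 155 copies averaged 56.4% ± 7.81 and 108 of them (69.7%) were members. None of its copies had a mean below 25% and 3 had one above 75%. Coverage at the copies was high, with a median of 43.5 reads in the leading spacing and 35.5 in the second. Over all autosomal cytosines under the limit it was 22. Along the chromosomes, only 2 of the 213 members of the leading spacing, and 0 of the 108 of the second, lay within 10000 bp of the preceding member of the same spacing, so that the members of a spacing were spread over the genome.

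Other spacings held few members among many copies. The fourth occurred at 1025 places with a median level of 90.3%, and 75 of them (7.32%) were members. The eighth occurred at 1051 places with a median of 86.5%, and 55 (5.23%) were members. Median coverage was 26.5 reads at copies of the fourth and 21.5 at those of the eighth. Of 105 spacings with 50 or more copies, 102 had at least 1 member and 15 had members at 25% or more of their copies. The study's lists of differentially methylated cytosines name the repeat at some of these copies. They name L1_BT, an L1 element of cattle, at copies of the leading spacing, the fourth, the fifth, the ninth and the twelfth, and BovB, another long interspersed element, at copies of the eighth. Named copies were few, at most 11 for a name and spacing, and 1 copy each of the leading spacing and the twelfth was named L1M2 or L1MDa instead. The lists were read in a shortened copy and hold only cytosines that the study picked from these samples, so no share is given.

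**Figure D2:**
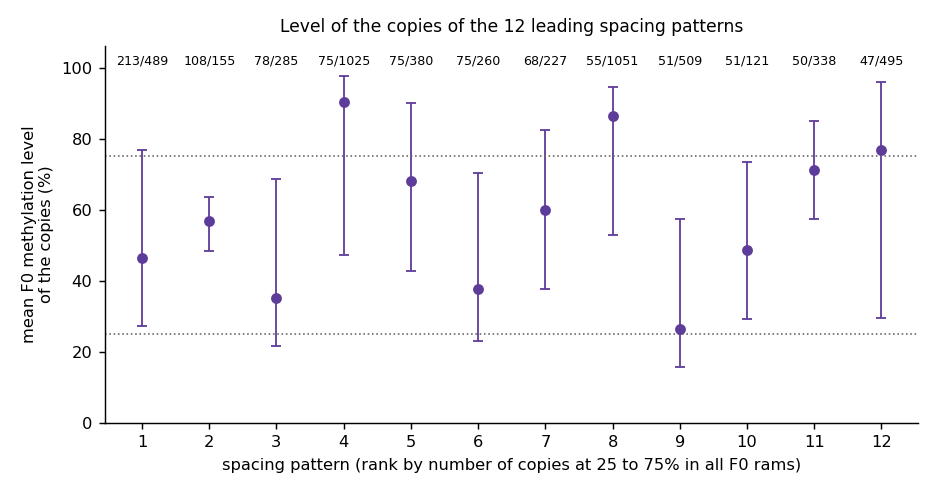
Mean F0 methylation level (%) of the copies of the 12 spacing patterns with most intermediate cytosines. Points are medians over copies, bars reach from the 10th to the 90th percentile, numbers above give members and copies, and dotted lines mark 25% and 75%. The second pattern is the narrowest, between 48.5% and 63.7%.

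The mean levels of the leading and second spacings were close to those of F0 in the later generations, which the rule did not use. The 213 members of the leading spacing averaged 48.2% ± 6.94 (SD over cytosines) in F0. In F1, 206 of them were listed and averaged 49.7% ± 7.74, and 162 were between the bounds in all 10 pools. In F2, 112 were listed and averaged 52.4% ± 8.18, and 35 of them were between the bounds in all 20 rams. The second spacing averaged 56.9% ± 6.91 over 154 copies in F1 and 59.0% ± 7.94 over 40 copies in F2. Its 108 members were all listed in F1, and 84 were between the bounds in every pool, while 36 were listed in F2 and 6 were between the bounds in every ram. Some other spacings had F2 means farther from their F0 means, over few listed members. The 75 members of the fourth averaged 50.8% in F0, 52.2% over the 70 listed in F1 and 58.0% over the 14 listed in F2. The 47 of the twelfth averaged 50.05% in F0, 50.2% over the 40 listed in F1 and 62.1% over the 7 listed in F2. For each spacing, the F0 mean of only the members listed later was not computed.

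Gene positions on this build were at hand only for 16 genes that the study placed in a table, a list chosen on these samples. Together their spans held 987 autosomal cytosines under the coverage limit and 23 members (2.33%, against 5.22% over all autosomes). DLG2, a scaffold protein of synapses, held 15 of its 262 cytosines as members, CTNNA3, an alpha-catenin of cell adhesion, held 7 of 332, and LRRIQ3 held 1 of 85. The other 13 genes held 0, and DIRAS3, GK2 and YBX3 had no listed cytosine at all. Which exon or intron holds these cytosines was not analysed here.

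The members in DLG2 lay at 45.1% to 67.1% except for chr21:11132523 (+), at 39.5% in F0. That cytosine averaged 37.0% in F1, with pools from 30.6% to 46.2%, and 46.3% in F2, with rams from 30.4% to 69.2%. In DLG2, chr21:11131099 (-) averaged 48.0%, 47.5% and 51.5% over the 3 generations and stayed between 37.1% and 65.9% in all F2 rams. In CTNNA3, chr25:23274540 (-), covered by a median of 90.5 reads in F0, averaged 56.6%, 56.1% and 53.4%. Others moved more, as chr25:24794540 (-) in CTNNA3 averaged 54.0%, 60.2% and 69.2%. The member in LRRIQ3, chr1:54123697 (-), averaged 67.0%, 69.8% and 78.9%, and was thus above the upper bound in mean in F2, with rams up to 100%. These cytosines were picked after their values were seen.

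Of the 15667 members, 13287 were listed in F1 and 4484 in F2. The smaller F2 number came with an F2 list of 122453 CG cytosines in all, against 294661 in F1, since each cytosine had to reach 10 reads in 20 rams. All 3 generations listed 4288 members, 8999 were listed in F1 and not in F2, 196 in F2 and not in F1, and 2184 in neither. Nothing is known here of the later levels of that last group.

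In F1 the intermediate level was kept at nearly every listed member. The mean over the 10 pools was between 25% and 75% at 13267 of 13287 members (99.8%), beside 90.1% of the other cytosines of intermediate F0 mean, and 8663 (65.2%) were inside the bounds in every pool. Over all autosomal cytosines listed in both generations, 7.59% were inside the bounds in every pool, and 15.96% were among the other cytosines of intermediate F0 mean taken alone. By the rule, each of these others had at least 1 F0 ram outside the bounds. The part of that choice in the differences was not tested. The level of a typical member moved by 3.15 points between the F0 and F1 means, and 4 members moved by over 20 points. The same move was 4.07 points at the other cytosines of intermediate F0 mean and 2.16 over all. Across members, Pearson's r between the F0 and F1 means was 0.82. It was 0.91 across those others and 0.98 across all. The classes span different ranges of level, and the part of that in r was not tested.

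Pools scattered less at members than at the other cytosines of intermediate mean and about as much as at all cytosines. As a measure of scatter, the squared deviations of the pools were divided by those expected from read counts alone, so that 1 stands for counting error only. This ratio had a median of 1.21 at members in F1, against 1.80 at the other cytosines of intermediate F0 mean, 1.12 at those with a mean over 75% and 1.25 over all. A pool averages several animals. In F0, whose levels chose the members, it was 1.09 and 2.41 for members and other intermediate means. The rule thus split these classes by F0 scatter too, and its part in the F1 difference was not tested. A pool with a level over 90% was present at 149 members and one under 10% at 151, whereas the other cytosines of intermediate mean had such pools at 10838 and 7209 of 50800.

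In F2 nearly all means stayed between the bounds but single rams left them more often. The mean over the 20 rams was between 25% and 75% at 4449 of 4484 members (99.2%), beside 82.3% of the other cytosines of intermediate F0 mean. The level of a typical member moved by 4.43 points between the F0 and F2 means, and 37 members moved by over 20 points. The same move was 5.87 points at the other cytosines of intermediate F0 mean and 2.26 over all. Inside the bounds in every ram were 703 members (15.7%), against 1.32% of all autosomal cytosines listed in both. Without ram 400 alone they were 1111 (24.8%), against 2.08% of all. At 2740 members at least 18 of 20 rams were inside. The scatter ratio was 1.93, against 3.53 at the other cytosines of intermediate mean, 1.62 at those with a mean over 75% and 1.95 over all. A ram over 90% was present at 796 members and one under 10% at 220, against 8965 and 6669 of 15843 other cytosines of intermediate mean. At 26 members the rams spanned from under 10% to over 90%, which happened at 4582 of those others. The part of the rule's choice of the others was not tested here either. Inside the bounds in all 40 samples were 578 of the 4288 members listed throughout (13.5%).

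**Figure D3:**
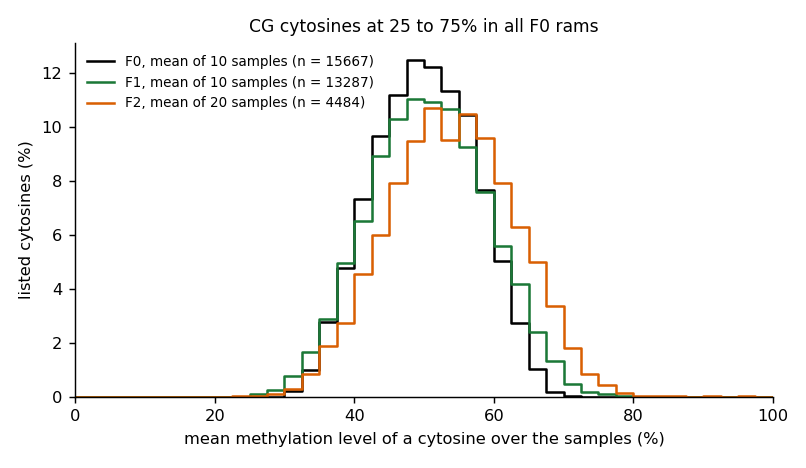
Distribution of the mean methylation level (%) of the intermediate cytosines in each generation, in steps of 2.5 points, as a percentage of the cytosines listed in that generation (y axis). The F0 and F1 curves lie close together around medians of 50.1% and 50.6%, and the F2 curve lies to the right with a median of 54.0%.

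Averaged over the 4288 members listed in all generations, single samples lay between 45.8% and 55.4% in F0, between 46.0% and 54.2% in F1, and between 44.9% and 68.6% in F2. The generation means were 50.01% ± 2.91 (SD, n = 10), 50.5% ± 2.93 (n = 10) and 54.0% ± 6.196 (n = 20). All 65297 cytosines listed in the 3 generations averaged 74.7%, 74.8% and 76.1%. Among these, the other cytosines of intermediate F0 mean averaged 52.2%, 53.0% and 55.5%. The F2 range of the members was wider mostly at its upper end, where 6 rams lay that are set apart below. The other 14 rams ranged from 44.9% to 58.1%, which is also wider than in F0 or F1.

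These 6 rams, 1 grandson each of methionine founders 3, 5 and 11 and of control founder 4 and both of control founder 24, were set apart because their mean over the cytosines with an F0 mean under 25% was above 20%. That choice was made after the values were seen. Their means over the intermediate cytosines were 57.7% to 68.6%, with a median of 60.3%. In the other 14 rams they were 44.9% to 58.1%, with a median of 50.7%. At the other cytosines of intermediate F0 mean the 6 rams were at 57.1% to 61.2%, with a median of 58.3%. The 14 were at 50.1% to 59.0% there, with a median of 54.2%. At the cytosines with an F0 mean over 75% the order was the opposite, at 84.5% to 91.5% in the 6 rams and 92.6% to 95.03% in the 14. The ranges of the high class did not overlap, whereas at the intermediate cytosines they overlapped between 57.7% and 58.1%. The separation at the low class is fixed by the choice of the rams.

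Ram 400, a grandson of founder 24, was the farthest from the rest, with a mean of 68.6% over the intermediate cytosines and 57.2% of its members inside the bounds. It also had the lowest median coverage, 12 reads. The 6 rams had 3735916 to 5162402 reads on listed cytosines, against 4141672 to 5585871 in the other 14. In their RNA the germ line list summed to 80.4 to 812 CPM, against 54.96 to 11102 in the others, the leukocyte list to 73.7 to 865 against 36.9 to 3049, and the squamous list to 2451 to 6741 against 22.9 to 7593. The ranges overlapped. Of the 14 rams, 10 had a squamous sum below the lowest of the 6 and 2 had one above the highest. For the germ line sum 1 was below and 7 were above, and for the leukocyte sum 4 were below and 3 above. The highest squamous and the lowest germ line sum of all 20 rams belonged to the same ram, a grandson of control founder 10 among the 14. The part of other cells or of depth in the methylation values was not tested. Without the 6 rams, 1835 of 4484 members (40.9%) were inside the bounds in every ram, against 3.65% of all.

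**Figure D4:**
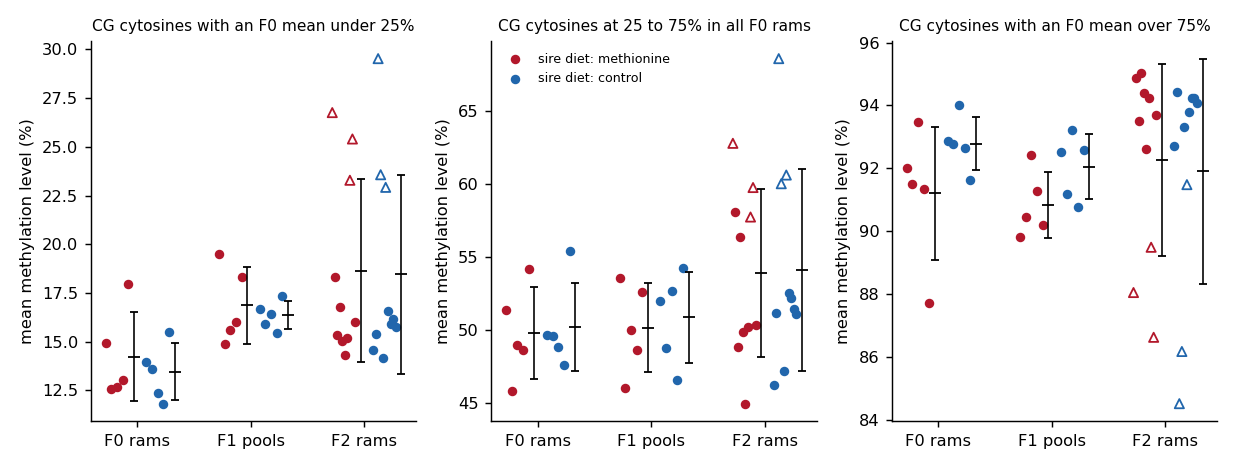
Mean methylation level (%) of each sample over cytosines listed in all 3 generations, for those with an F0 mean under 25% (left), the intermediate ones (middle) and those with an F0 mean over 75% (right). Each point is a ram or pool, red for methionine and blue for control sires, open triangles are the 6 F2 rams named in the text, and bars give the mean ± SD of a group. The triangles are at or above 22.9% on the left and at or below 91.5% on the right. The y axes differ and do not start at 0.

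Among the F1 pools, those of sires 24 and 3 had the highest means over the members, 54.2% and 53.5%, and those of sires 5 and 12 the lowest, 46.0% and 46.6%. At the other cytosines of intermediate mean the pool of sire 24 was highest as well, at 55.9%, and those of sires 12 and 5 were lowest, at 50.2% and 50.3%. As a description only, the sires themselves were at 55.4% (24), 51.3% (3), 45.8% (5) and 47.6% (12) over the members. In F2 the grandsons of founder 24 were at 68.6% and 60.02%, those of founder 3 at 59.8% and 50.3%, those of founder 5 at 62.8% and 49.9% and those of founder 12 at 51.2% and 47.2%. Both grandsons of founder 24 and the higher ones of founders 3 and 5 are among the 6 rams that stood apart.

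At single members, deviations from the generation mean were compared between relatives over the 4288 members. Between a pool and the F2 rams of its founder, r had a median of 0.06 over 20 pairs (-0.09 to 0.17), and between a pool and other F2 rams it had one of -0.01 (-0.14 to 0.13). Between F2 rams of the same founder the median was 0.07 over 10 pairs (-0.12 to 0.39), and between the others it was -0.04 (-0.25 to 0.34). The ranges overlapped widely in both cases. F2 rams of the same founder differed by a median of 11.2 points at a member, and rams of different founders by 11.8. As a description only, since the F0 levels chose the members, a sire and its own pool had a median r of 0.12 (0.04 to 0.22, 10 pairs) and a sire and another sire's pool one of -0.02 (-0.12 to 0.10). The points of each correlation share libraries and depth.

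The diets of the founders were compared within each generation by a likelihood-ratio test on reads summed over each side, and a cytosine was called at a difference of at least 20 points with a Benjamini-Hochberg adjusted p of at most 0.01 over all listed CG cytosines. In F1, 12 of 13287 members were called (0.0903%), 7 higher and 5 lower on the methionine side, against 1.00% of all listed cytosines (0.458% higher and 0.542% lower). Without the control pool of sire 24 they were 19 (0.143%), against 1.32% of all. In F2, 9 of 4484 were called (0.201%), 5 higher and 4 lower, against 2.19% of all (1.10% higher and 1.09% lower). Without the 6 rams that stood apart they were 27, against 3.45% of all, and with at least 20 reads in every ram 0 of 418, against 0.387% of all. The other cytosines of intermediate F0 mean, each with at least 1 F0 ram outside the bounds, were called at 3.36% in F1 and 8.13% in F2. The rule left out every cytosine at which any founder was outside the bounds, and the F1 and F2 samples descend from these founders. The part of that in the F1 and F2 shares, and in the count called in both, was not tested. In F0 the same call rule took 14 members (2 higher and 12 lower) against 1.82% of all listed (0.770% higher and 1.05% lower). That count was limited by the rule, which bounds every F0 ram, and is a description only. Called in both F1 and F2 were 0 of the 4288 members listed in both, beside 0.287% of all 79451 cytosines listed in both.

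The test on summed reads takes reads as independent and ignores differences between animals. With limma on the level of each sample, 0 members were called in F1 and 0 in F2, and the same held for all listed cytosines. At an unadjusted p under 0.05, limma had 704 members in F1 (5.30%) and 169 in F2 (3.77%), beside 4.82% and 2.96% of all listed cytosines. The median difference between the sides over the members was -0.69 points in F1 and -0.17 in F2 (methionine minus control, means of samples), against -0.87 and 0.21 over all listed cytosines. Averages over the 4288 common members were 50.2% ± 3.04 for methionine and 50.9% ± 3.11 for control pools (SD, n = 5 each), and 53.9% ± 5.78 and 54.1% ± 6.90 for F2 rams (n = 10 each), so the sides differed by less than 1 SD in each generation.

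Groups did not overlap at 34 members with all methionine pools above and 41 with all below the control pools, which is 75 of 13287, while 0.670% of all listed cytosines had no overlap in F1. In F0, as a description only, there were 32 and 58 such members, beside 0.575% of all listed. In F2 no member had such a separation, and 0.000817% of all listed cytosines did. Of the 12 members called in F1, 4 had no overlap, and these are named after their values were seen. At chr2:75989468 (+) the methionine pools were at 28.6% to 46.6% and the control pools at 56.6% to 75.5%. At chr8:39356937 (+) the order was the opposite, with 41.2% to 62.9% against 21.2% to 27.3%. The other 2 were chr1:25282273 (-), at 21.4% to 43.3% against 43.4% to 75%, and chr12:34244032 (-), at 22.2% to 47.6% against 47.8% to 96.4%, where the ranges nearly touched. The study's list names L1_BT at chr1:25282273 and chr8:39356937 and an intron of SMYD3, a lysine methyltransferase, at chr12:34244032.

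Pools and F2 rams, neither of which the rule used, were compared with limma over the 79451 cytosines listed in both, with the founders' diet as a term. At 20 points and an adjusted p of 0.01, 3 of 4288 members were called (0.0700%), all higher in F2. Over all cytosines 10 were called (0.0126%), with 0.0113% higher and 0.00126% lower in F2. The median F2 minus F1 difference was 3.51 points over members and 1.09 over all. Without the 6 rams that stood apart 2 members were called, of 77 cytosines in all (39 higher and 38 lower in F2), and the medians were 0.09 and 1.59 points. Generation, the pooling of animals and any difference between sequencing runs cannot be told apart in this comparison. Listed CHG cytosines within 100 bp of members averaged 0.350% in the pools (0.337% to 0.360%). In the F2 rams they averaged 0.489% (0.452% to 0.519%), over fewer cytosines, and the cause of that was not tested.

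Of the 3 members, chr21:40763348 (-) had the largest difference. It was at 50% to 71.0% in the F0 rams and at 46% to 64.4% in the F1 pools, and at 93.7% to 98.6% in the F2 rams, with a mean F2 minus F1 difference of 41.7 points (limma, adjusted p = 1.01e-16). All 20 F2 rams lay above every founder and pool, on both diets and without regard to the 6 rams. Its median coverage moved with it, from 39 reads in F0 and 45 in F1 to 156 in F2, and the part of that in the difference was not tested. Coverage shifted in F2 at other named members too, as at chr15:31608 (-), with medians of 46, 48.5 and 118.5 reads. At chr4:44630074 (-) the F1 mean was 44.2% ± 9.13 and the F2 mean 76.7% ± 8.25 (adjusted p = 1.89e-06), with ranges of 23.6% to 55.6% and 54.5% to 91.1% that overlapped slightly. At chr4:2030078 (+) the means were 47.3% ± 9.98 and 68.6% ± 7.45 (adjusted p = 0.00148).

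Besides chr21:40763348, the members with the largest F2 minus F0 differences in mean were chr7:18978608 (-), chr4:47070258 (+) and chr14:29732882 (-), at 30.7, 30.2 and 29.4 points. At chr7:18978608 the F0 rams were at 40.5% to 63.8%, the pools at 31.2% to 93.1% and the F2 rams at 37.0% to 100%. Many F2 rams were near full methylation there and others near 50%, so the mean hides a wide spread. At chr4:47070258 the generation means were 55.2% ± 9.01, 72.9% ± 9.75 and 85.5% ± 8.33, with the pools between founders and grandsons. At chr14:29732882 they were 45.7% ± 9.002, 62.02% ± 14.1 and 75.1% ± 16.9. These members were chosen for the F2 minus F0 difference, which was not tested.

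The steadiest members moved little over 40 samples. The smallest range belonged to chr4:20812687 (+), from 56.1% to 80% (23.9 points), with generation means of 65.3%, 67.2% and 72.0%. Next came chr1:128504848 (-), within the largest group of members, with 65.4%, 66.4% and 69.0% and a range of 24.6 points. At chr9:7055752 (+), covered by a median of 110 reads in F0, the means were 52.8% ± 5.39, 54.1% ± 5.25 and 54.2% ± 7.78, with all samples between 41.03% and 67.9%. At chr24:20177237 (-) the means were 64.3%, 62.8% and 65.4%, at chr2:166574654 (-) 48.7%, 42.9% and 48.4%, and at chr1:103074996 (+) 38.7%, 35.4% and 39.5%. The range of each of the 6 was at most 27.2 points, and since they were chosen for a small range, no test was made of it.

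The deepest member of each of the 6 largest groups was followed as well. At chr1:128504979 (-) the methionine rams of F0 were at 48.5%, 56.9%, 52.8%, 44.4% and 64.9% and the controls at 44.8%, 49.5%, 40.8%, 38.8% and 48.5%. Its methionine pools were at 50.9%, 53.5%, 59.8%, 51.3% and 56.5% and its control pools at 41.6%, 42.3%, 62.3%, 45.9% and 55.1%. The pools of both sides overlapped, with a mean difference of 4.99 points (two-sided exact permutation test, p = 0.286). In F2 the rams ranged from 35.4% to 82.3%, the highest being ram 400, with 53.3% ± 7.21 against 52.6% ± 13.6 (n = 10 each, permutation test, p = 0.890). This F2 test took rams of the same founder as separate samples.

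The other 5 stayed intermediate in mean in every generation too. On chromosome 15, chr15:28908 (-) averaged 45.7%, 53.0% and 55.1%, chr15:29864 (+) 38.6%, 38.2% and 41.3%, and chr15:31608 (-) 54.8%, 57.4% and 59.9%. At chr1:3017552 (+) the means were 44.8%, 48.1% and 48.9%, and at chr3:192519899 (-) they were 50.2%, 50.003% and 56.7%. Over these 6, the smallest p of the diet comparison was 0.286 in F1 (exact permutation test) and 0.503 in F2 (permutation test), both two-sided and without adjustment. The SD between all 20 F2 rams was larger than between F1 pools at each of these 6. Without the rams that stood apart it was smaller at each. At chr15:29864 the SD was 19.1 points over 20 rams and 4.92 over the other 14, against 7.81 over the pools. At chr15:31608 it was 11.4, 6.22 and 8.43. At the others the SD over the 14 rams stayed above that over the pools. It was 7.15 against 7.01 at chr1:128504979, 6.87 against 5.11 at chr15:28908 and 7.16 against 6.69 at chr1:3017552. At chr3:192519899 it was 12.4 over 20 rams and 10.8 over the 14, against 9.40.

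**Figure D5:**
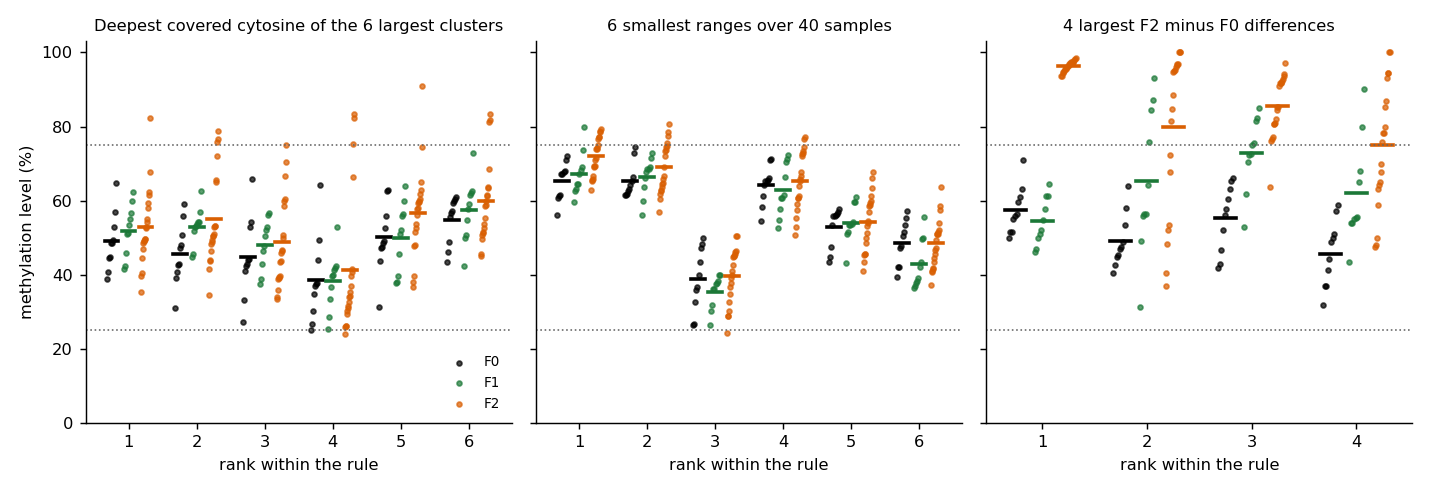
Methylation level (%) of the named cytosines in every F0 ram (black), F1 pool (green) and F2 ram (orange), sorted within a generation, with horizontal bars for the means and dotted lines at 25% and 75%. The left panel holds the deepest cytosine of each of the 6 largest groups, the middle panel the 6 with the smallest range, and the right panel the 4 with the largest F2 minus F0 difference. In the right panel the F2 rams at chr21:40763348 lie between 93.7% and 98.6%, above all founders and pools.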

How the data were processed

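The authors trimmed bisulfite reads with Trim Galore, aligned them to Oar_rambouillet_v1.0 with Bismark and Bowtie2, removed duplicates and deposited, for each listed cytosine and sample, the counts of all, methylated and unmethylated reads, without normalization. The RNA file holds raw counts per gene, deposited after alignment with STAR. From these counts the level of each cytosine was computed as methylated over all reads. The members and the lists were chosen with earlier results of these data known. Diets were compared by a likelihood-ratio test on summed reads (SciPy 1.17.1), and pools with F2 rams by limma 3.58.1 in R 4.3.3, both adjusted by Benjamini-Hochberg over all listed CG cytosines. For a named cytosine the diets were compared by permuting the sample labels, two-sided, over all arrangements of 5 against 5 (exact) or 100000 resamples of 10 against 10. Coverage sets the precision, as 10 reads give steps of 10 points. P-values measure the spread between these samples or, for summed reads, counting error only.

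The named cytosines are the deepest member of each of the 6 largest groups, the 6 members with the smallest range over 40 samples, the 4 with the largest F2 minus F0 difference and those next to each bound. The rule also asked for members called in F1 and F2, of which there were 0. The tests were checked on simulated data. Alternatives were other bounds, coverage limits and minima, chaining distances, tests, thresholds, left-out samples and blocks. Imprinted and germ line promoter lists could not be placed, since no annotation of this build was used here, and no sequence is shown.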

Additional observations from a re-analysis of the deposited data

Results flagged for a closer look

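Among groups of 5 or 10 values (the mean over members and the share inside the bounds in each sample, and the levels of the 16 named cytosines), 7 (6.60%) had a sample far from the others by Dixon's test. Chance flags about 1 in 20 such groups. In F0, control ram 24 had a mean over members of 55.4%, with the next control ram at 49.7%. In F2, control ram 400 had 57.2% of members inside the bounds, with the next ram at 85.3%, and stood at 90.9% at chr3:192519899 (-), where the next control ram was at 65.1%. At that cytosine methionine ram 5 of F0 was at 31.3%, with the next at 47.3%. Methionine ram 11 of F0 was at 43.3% at chr15:31608 (-), control ram 4 of F0 at 74.5% at chr1:128504848 (-), and the control pool of sire 12 at 26.3% at chr1:103074996 (+).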

How the results depend on the processing

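Of 73 alternative settings, 51 gave a count within 1.5 times of the one reported. The number of intermediate cytosines was 6226 with bounds of 30% to 70%, 27233 with 20% to 80% and 6238 with at least 20 reads in every ram. Leaving out a ram gave 16574 to 17891. Inside the bounds in every F1 pool were 4519 of 5993 members with at least 20 reads (75.4%, against 11.9% of all), and leaving out a pool gave 8802 to 9197. For every F2 ram the numbers were 1683 with bounds of 20% to 80%, 101 of 418 with at least 20 reads, 1835 without the 6 rams and 1111 without ram 400. At a median F0 coverage under 2 times that of the file, 13.3% of 2701 members were inside the bounds in every F2 ram, against 0.931% of all. The last 3, limma with a block in F0 and a window of 20 bp for the spacings were chosen after seeing the data, as were the F2 counts without the 6 rams that follow.

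With a threshold of 25 points the diets differed at 2 members in F0, at 7 in F1 and at 5 in F2, beside 1.15%, 0.60% and 1.13% of all listed cytosines. With at least 20 reads in every ram 0 of 418 were called in F2, beside 0.387% of all, and without the 6 rams 27 were called (0.602%), beside 3.45% of all. Leaving out a sample gave 8 to 22 in F0, with 8 without control ram 4 and 22 without methionine ram 3, and 11 to 19 in F1, with 19 without the control pool of sire 24, beside 1.99% to 2.34% and 0.949% to 1.32% of all. With limma 0 were called in any generation, also with consecutive founder numbers as a replicate block, and at an unadjusted p under 0.05 limma with this block had 1187, 959 and 176 members (7.58%, 7.22% and 3.93%), beside 5.71%, 5.69% and 3.33% of all. All F0 values of members are descriptions, since the F0 levels chose them. With the founder number as a replicate block, 3 members were called between pools and F2 rams, as without it. Over all 79451 cytosines, deviations of a pool and an F2 ram of its founder correlated at a median of 0.23 (-0.04 to 0.32, 20 pairs), and those of a pool and a ram of another founder at -0.03 (-0.27 to 0.32, 180 pairs). The causes of these differences were not tested. Depth limits single levels, since the lowest coverage among the F0 rams had a median of 17 reads over the members.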
